A study of Homo sapiens and Mus musculus with 8 samples.

Results

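The globin genes of K562 cells were examined together with 1 partner gene. They are the alpha-like globin genes HBZ, HBM, HBA2 and HBA1, the beta-like globin genes HBE1, HBG2, HBG1, HBBP1 and HBD, and the partner is AHSP, which encodes the chaperone of free alpha-globin. These 10 genes, of 35141 in the K562 table, were taken by their gene symbols, with earlier results of these data known. K562 is a human chronic myeloid leukemia cell line that expresses BCR-ABL and has erythroid features. The study incubated K562 cells, and a mouse BaF3 line with the T315I mutant of BCR-ABL that is not described here, with JOA (Jiyuan oridonin A, an ent-kaurene diterpenoid) and asked how JOA acts on the block of differentiation. The mRNA of K562 cells was sequenced after 48 h, in 2 libraries of cells given control (control_1 and control_2) and 2 libraries of cells given JOA at 2 μM (JOA_1 and JOA_2). What the control held is not given in the labels, and neither the labels nor the methods say whether the libraries of a group came from separate cultures, so p-values here reflect only how far these 4 libraries spread, which may be technical. Nothing else separates the groups in the labels, and all 4 libraries come from 1 cell line.

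Hemoglobin is a tetramer of alpha-like and beta-like globin chains that each hold a heme. The alpha-like genes lie together on chromosome 16 and the beta-like genes on chromosome 11, in the order in which they are used during development. Embryonic cells use HBZ and HBE1, fetal cells use HBA1, HBA2, HBG1 and HBG2, and adult cells use HBA1, HBA2, HBB and, at a low level, HBD. Each cluster is switched on by a distant enhancer region that binds GATA1, KLF1 and NFE2. K562 cells are known for making embryonic and fetal globin chains and hardly any adult beta-globin.

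The JOA libraries had less globin mRNA in both clusters. The summed level of the 4 alpha-like genes in JOA was 22.3% of the control level (30.5% with HBQ1, a further gene of the cluster, added), and that of the beta cluster was 40.7%. Both JOA libraries were below both controls in 9 of the 10 genes, where 18.3% of all genes tested had that order and 36.8% had the opposite one. The exception was HBM, which had 4 reads in all and was not among the genes tested. AHSP averaged 0.5 FPKM or more, the level needed for the test, through its controls alone. Without AHSP and HBM, all 8 genes left averaged 5 FPKM or more. All 8 had that order, where 25.5% of all genes at that level did. No gene of the table passed the adjusted threshold in the main test, so no single globin gene was called. HBZ and HBE1, the embryonic genes, held shares of the genes examined in their clusters that overlapped between the groups in FPKM, but the HBZ share did not overlap once HBQ1 was added, nor did the HBE1 share in reads. HBBP1, a pseudogene of the beta cluster, had the lowest ratio of JOA to control of the 9 genes examined in the clusters, at 17.8%. HBA2 was close to it, at 20.2%, and the order of HBBP1 and HBA2 turned when JOA_1 was left out.

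The level of each gene was measured as FPKM, the fragments of a gene scaled by its transcript length and by the depth of the library. The 4 libraries held 22625598 to 23292643 reads as recovered from the values, and the 10 genes took 0.556% and 0.518% of the reads in the controls, against 0.269% and 0.177% in the JOA libraries. Genes that averaged 0.5 FPKM or more, 15635 in all, were compared between JOA and control with limma on log2(FPKM + 0.5), and a fold change on this scale understates the difference of low genes. The threshold for a call was an adjusted p (Benjamini-Hochberg) under 0.05 with a log2 fold change of 0.58 or more in either direction. Of all genes tested, 0 were called higher (0.0%) and 0 lower (0.0%), with a smallest adjusted p of 0.171. At an unadjusted p under 0.05 and the same fold, 841 genes were higher (5.38%) and 372 were lower (2.38%), and the lower genes included 9 of the 10 globin-related genes, or 8 of 9 without AHSP, which passed the filter on low values through its controls alone. The median log2 fold change was 0.096 over all genes tested and -1.61 over the 10 genes. A log2 fold change of -1 or lower was found in the same 9 genes (8 without AHSP) and in 0.774% of all genes tested, and one of -0.58 or lower in 3.46%. In bulk mRNA, fewer cells that express a gene and less of its mRNA per cell cannot be told apart.

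**Figure D1:**
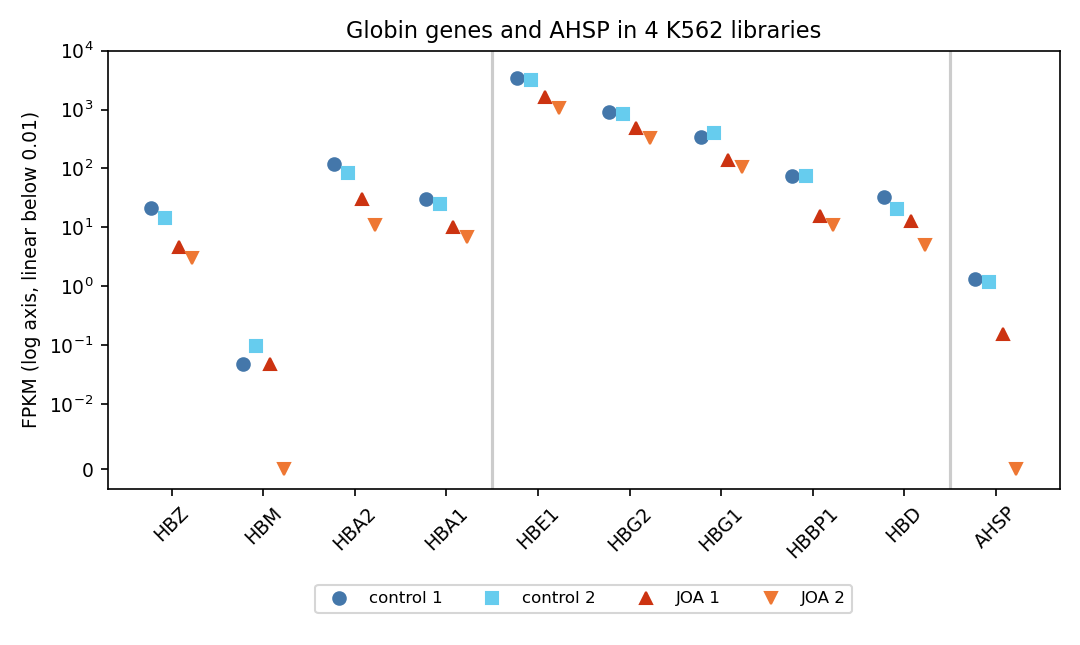
FPKM of the 10 genes (x axis, alpha cluster, beta cluster and AHSP separated by grey lines) in each of the 4 K562 libraries, on an axis that is logarithmic above 0.01 and linear below it. Each point is 1 library. Both JOA points lie below both control points in every gene but HBM, and HBE1 is the most abundant gene, at 3464 and 3227 FPKM in the controls.

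HBZ encodes zeta-globin, the embryonic alpha-like chain (GRCh38, chromosome 16, 152687 to 154503, plus strand). Its level was 21.04 FPKM in control_1, 14.5 in control_2, 4.70 in JOA_1 and 2.99 in JOA_2. The lower control was above both JOA libraries, by more than the gap within either group. On the log2 scale JOA against control gave a fold change of -2.08 with a standard error of 0.27 (limma, n = 2 and 2, adjusted p = 0.226). HBZ had 370 and 252 reads in control_1 and control_2, and 82 and 51 in JOA_1 and JOA_2. In the annotation, 205 exon bases belong to both HBZ and HBM, the next gene on the same strand.

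HBM encodes mu-globin, an alpha-like chain whose part in hemoglobin is not established (chromosome 16, 153892 to 166768, plus strand). It was hardly detected, with 1, 2, 1 and 0 reads in control_1, control_2, JOA_1 and JOA_2, or 0.0469, 0.0949, 0.0472 and 0 FPKM. It did not reach the mean of 0.5 FPKM and was not tested. The ratio of JOA to control reads was 0.337, with an exact 95% interval of 0.00643 to 4.202 that covers counting error only. The groups overlapped, and at this depth a difference was not detectable.

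HBA2 and HBA1 encode the same alpha-globin chain. HBA2 (chromosome 16, 172876 to 173710, plus strand) was at 120 FPKM in control_1, 83.4 in control_2, 30.1 in JOA_1 and 10.9 in JOA_2. Every library differed widely from the next, and JOA_2 was lower than JOA_1 by nearly as large a factor as JOA_1 was below control_2. The log2 fold change was -2.43 with a standard error of 0.50 (limma adjusted p = 0.236). It was -3.14 without JOA_1 and -1.72 without JOA_2. HBA1 (chromosome 16, 176680 to 177522, plus strand) was lower in level, at 30.7 and 25.0 FPKM in the controls and 10.3 and 6.72 in JOA_1 and JOA_2. Its groups were further apart than its libraries within a group, with a log2 fold change of -1.68 and a standard error of 0.23 (limma adjusted p = 0.226).

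The coding sequences of HBA2 and HBA1 are identical over all 429 bases. Of the stretches of 50 bases in the HBA2 transcript, 81.8% are also in the HBA1 transcript, so how reads were divided between them depends on the counting, which is not given in the sources used here. The sum of both genes depends on that division only through their slightly different lengths, unless shared reads were dropped. It was 151 and 108 FPKM in the controls and 40.4 and 17.7 in JOA_1 and JOA_2, which is 22.4% of the control mean. The ratio of HBA2 to HBA1, which depends on it in full, was 3.92 and 3.34 in control_1 and control_2, against 2.94 and 1.63 in JOA_1 and JOA_2.

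HBE1 encodes epsilon-globin, the embryonic beta-like chain (chromosome 11, 5268345 to 5505652, minus strand, a span that includes transcripts that start far upstream). It was the most abundant of the 10 genes, with 3464 FPKM in control_1, 3227 in control_2, 1645 in JOA_1 and 1072 in JOA_2. The controls were close to each other, and the JOA libraries lay well below them and differed more. HBE1 had a log2 fold change of -1.33 with a standard error of 0.23 (limma adjusted p = 0.227). The read numbers behind these levels were 74869, 68903, 35277 and 22516, so counting error was small. In the annotation HBE1 shares 84 exon bases with the olfactory receptor gene OR51B5 and 37 with HBG2, and HBG2 shares 37 with OR51B5.

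HBG2 and HBG1 encode the G-gamma and A-gamma chains of fetal hemoglobin. HBG2 (chromosome 11, 5253190 to 5505605, minus strand) was at 918 and 835 FPKM in the controls, 492 in JOA_1 and 326 in JOA_2. HBG1 (chromosome 11, 5248079 to 5249859, minus strand) was at 346 and 406 FPKM in the controls, 141 in JOA_1 and 107 in JOA_2. Neither gene overlapped between the groups. The log2 fold change was -1.13 with a standard error of 0.22 for HBG2 (limma adjusted p = 0.236) and -1.61 with a standard error of 0.17 for HBG1 (limma adjusted p = 0.225).

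The sum of the gamma genes was 1264 and 1241 FPKM in the controls and 633 and 433 in JOA_1 and JOA_2, 42.6% of the control mean. The ratio of HBG2 to HBG1 was 2.65 and 2.05 in the controls, against 3.501 and 3.04 in the JOA libraries. It did not overlap between the groups, and an exact two-sided permutation test over 2 against 2 libraries gave p = 0.333, the smallest it can give. The size of this ratio is bound to gene length, because the values give whole reads for HBG2 at a length of 2027 bases and for HBG1 at 808 bases, while GENCODE 29 has exon lengths of 869 and 1659. In reads the ratio was 6.66, 5.15, 8.78 and 7.63. This is the FPKM ratio times the same constant in each library, so the order of the libraries could not differ.

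The coding sequences of HBG2 and HBG1 differ at only 2 of 444 bases, T227C and G410C, where the first letter is the base in HBG2, the second that in HBG1, and positions are counted from the first base of the coding sequence. Both are differences between the reference sequences, and which bases K562 cells carry was not examined. Where the cells carry the reference bases, reads over these 2 positions can be assigned to 1 gene from the coding sequence. The windows around the positions are shown because the ratio of the gamma genes rests on such differences and on the untranslated ends. The differing base is in capitals, in the sense of the genes, from GRCh38 with GENCODE 29 transcripts.
HBG2 at chr11:5254360-5254400, minus strand: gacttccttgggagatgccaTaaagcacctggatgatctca
HBG1 at chr11:5249436-5249476, minus strand: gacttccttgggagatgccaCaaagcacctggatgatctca
HBG2 at chr11:5253291-5253331, minus strand: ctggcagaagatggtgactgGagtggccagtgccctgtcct
HBG1 at chr11:5248373-5248413, minus strand: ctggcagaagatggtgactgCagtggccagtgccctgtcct
Of the stretches of 50 bases in the HBG2 transcript, 64.8% are also in the HBG1 transcript. HBE1 shares 83.6% of its coding bases with HBG1, and HBD shares 76.1%, so these genes are told apart over most of their length.

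HBBP1 is a transcribed pseudogene between the gamma genes and HBD that makes no globin chain (chromosome 11, 5241105 to 5243537, minus strand). It was at 75.6 FPKM in control_1, 74.7 in control_2, 15.7 in JOA_1 and 11.03 in JOA_2. The controls agreed closely, and both JOA libraries were far below them. The log2 fold change of -2.47, with a standard error of 0.18, was the second lowest of all 15635 genes tested, and the limma adjusted p was 0.185. With only genes that averaged 5 FPKM or more, which left 7812 genes tested, HBBP1 was called (adjusted p = 0.0472), as 1 of 2 genes called lower (0.0256%). It was also called with voom weights on the recovered reads (adjusted p = 0.0448), as the 1 gene called lower of 15675 (0.00638%). In the other settings, replicates left out included, its adjusted p was between 0.0902 and 0.827.

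HBD encodes delta-globin, the beta-like chain of the minor adult hemoglobin A2 (chromosome 11, 5232678 to 5243657, minus strand). It was at 32.4 FPKM in control_1, 20.5 in control_2, 13.0 in JOA_1 and 4.99 in JOA_2. The groups did not overlap, but control_2 was nearer to JOA_1 than to control_1 in FPKM. For HBD the log2 fold change was -1.61 with a standard error of 0.48, the largest of the beta cluster (limma adjusted p = 0.258). It was -2.26 without JOA_1 and -0.97 without JOA_2. HBD and HBBP1 share 88 exon bases on the same strand in the annotation, and the part of such reads in either value was not tested.

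The 250 bases before the start of HBD are shown as the promoter of the one well-measured globin gene in the RefSeq table, which had windows for 2 of the 10 genes, HBD and HBM. This start lies inside the span of HBD given above, which includes a transcript that starts further upstream. Capitals mark the matches to the motifs searched.
HBD at chr11:5234484-5234733, minus strand, GRCh38.p14: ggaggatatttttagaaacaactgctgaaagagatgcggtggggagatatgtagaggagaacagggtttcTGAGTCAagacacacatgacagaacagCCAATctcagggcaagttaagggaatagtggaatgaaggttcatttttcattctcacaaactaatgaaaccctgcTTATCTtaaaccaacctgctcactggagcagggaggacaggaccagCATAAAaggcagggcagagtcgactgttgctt
The search covered both strands of windows of 300 bases, from 250 before to 50 after the start, and all matches for HBD were before it. The GATA factor motifs were AGATAA and also TGATAA, the KLF factor motifs were CACACCC and also CCCACCC, and the TATA box motifs were CATAAA and also TATAAA. The others were CCAAT as the CCAAT box, TGACCA, and TGACTCA, whose reverse complement is TGAGTCA, for NFE2, so the last pair always overlap. HBD had AGATAA on the opposite strand at -78 to -73 from its start, CCAAT at -153 to -149, CATAAA at -32 to -27 and TGAGTCA at -180 to -174. Of 35116 promoter windows of 300 bases, 10.3% held AGATAA, 34.6% CCAAT, 10.6% CATAAA and 4.95% TGAGTCA or its reverse complement. The other motifs were found in 7.53% (TGATAA), 7.56% (CACACCC), 19.6% (CCCACCC), 11.5% (TATAAA) and 10.7% (TGACCA) of the windows and not in that of HBD. No motif was found in the window of HBM, whose GC content before the start was 69.2% against 45.2% for HBD. A match of letters is a description and does not show that a factor is bound there.

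AHSP encodes the alpha-hemoglobin stabilizing protein, which binds free alpha-globin until it pairs with a beta-like chain (chromosome 16, 31527864 to 31528803, plus strand, far from the alpha cluster). Its level was low, at 1.30 and 1.16 FPKM in the controls, 0.154 in JOA_1 and 0 in JOA_2. These values stand for 17, 15, 2 and 0 reads, and 0 reads in JOA_2 allows a level of up to 0.236 FPKM, that of 3 reads. The ratio of JOA to control reads was 0.0633, with an exact 95% interval of 0.00735 to 0.248. For AHSP the log2 fold change was -1.60 with a standard error of 0.27 (limma adjusted p = 0.227), and it depended on the pseudocount, with -3.06 at a pseudocount of 0.1 and -1.05 at 1.

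By cluster, the summed level of HBZ, HBM, HBA2 and HBA1 was 172 FPKM in control_1, 123 in control_2, 45.1 in JOA_1 and 20.7 in JOA_2, a log2 ratio of JOA to control means of -2.17. The summed level of HBE1, HBG2, HBG1, HBBP1 and HBD was 4835, 4564, 2307 and 1521 FPKM, a log2 ratio of -1.30. The alpha sum was 3.56% and 2.70% of the beta sum in the controls and 1.96% and 1.36% in JOA_1 and JOA_2. The groups did not overlap in any of these 3 measures, and the exact two-sided permutation test gave p = 0.333 for each, the smallest that 2 against 2 libraries can give. JOA_2 was lower than JOA_1 in all 10 genes, where 45.5% of all genes tested had that order. Control_2 was lower than control_1 in 8 of the 10 genes, where 49.7% of all genes tested had that order.

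By developmental stage, shares were taken within the 4 alpha-like and the 5 beta-like genes. HBZ, the embryonic gene, held 12.2% and 11.8% of the alpha sum in the controls and 10.4% and 14.5% in JOA_1 and JOA_2, so the JOA libraries lay on either side of the controls. HBA1 and HBA2 held 87.7%, 88.1%, 89.5% and 85.5%. This depends on which genes make up the cluster. With HBQ1 added, a choice made after its values were seen, HBA1 and HBA2 held 65.5% and 63.9% in control_1 and control_2, against 54.6% and 36.8% in JOA_1 and JOA_2. HBZ then held 9.13%, 8.55%, 6.35% and 6.23%, and HBQ1 held 25.4%, 27.5%, 39.0% and 56.9%. None of these 3 shares overlapped between the groups (exact two-sided permutation p = 0.333 for each, the smallest possible). HBE1, the embryonic gene of the beta cluster, held 71.6% and 70.7% of the beta sum in the controls, against 71.3% and 70.5% in the JOA libraries, and the groups overlapped. The difference between the means was -0.28 percentage points for HBE1 and 0.42 for HBZ, and its sign turned when 1 library was left out. For HBZ it was -2.55 with HBQ1 added. HBG1 and HBG2 together held 26.1% and 27.2% in the controls, against 27.4% and 28.5% in the JOA libraries. Here the groups did not overlap, with a gap smaller than the difference between libraries of a group. HBD held 0.670%, 0.448%, 0.562% and 0.328%.

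The share of HBBP1 in JOA was 44.0% of its control share, against 79.5% for HBD, 99.6% for HBE1 and 105% for the gamma genes. It was 1.56% and 1.64% of the beta sum in the controls and 0.682% and 0.725% in JOA_1 and JOA_2 (exact two-sided permutation p = 0.333, the smallest possible). The ratio of embryonic to fetal beta-like mRNA, HBE1 over both gamma genes, was 2.74 and 2.60 in the controls, against 2.60 and 2.48 in the JOA libraries. In reads, without division by length, the share of HBE1 was 59.3% and 59.1% in the controls, against 57.5% and 56.8% in the JOA libraries, and that of the gamma genes was 39.5%, 39.8%, 41.9% and 42.7%. In this form the groups did not overlap in either share.

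**Figure D2:**
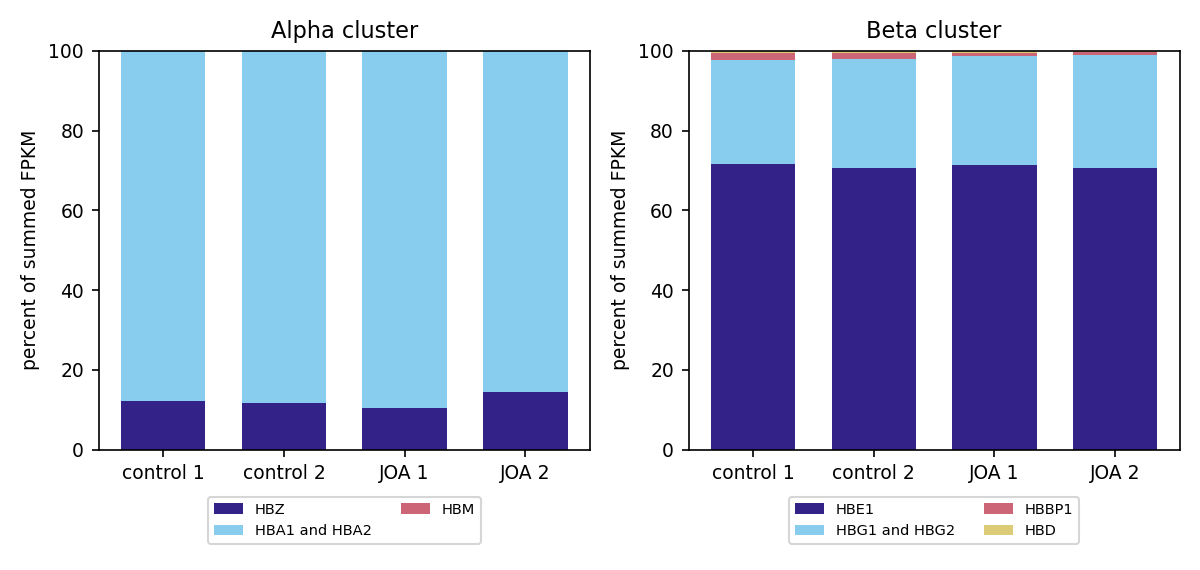
Percent of the summed FPKM of the alpha cluster without HBQ1 (left) and of the beta cluster (right) held by each gene or gene pair, in stacked bars of 1 library each. HBZ holds 10.4% to 14.5% of the 4 alpha-like genes and HBE1 holds 70.5% to 71.6% of the beta cluster in the 4 libraries, and the thin HBBP1 band is narrower in the JOA libraries.

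Adult beta-globin, HBB, was nearly absent, with 7 and 6 reads in the controls, against 1 and 1 in the JOA libraries, or 0.255, 0.221, 0.0367 and 0.0375 FPKM. The ratio of JOA to control reads was 0.156, with an exact 95% interval of 0.0171 to 0.688, and HBB was under the filter. HBQ1, the theta-globin gene at the end of the alpha cluster, was at 58.5 and 46.7 FPKM in the controls and 28.9 and 27.3 in JOA_1 and JOA_2. Its log2 fold change was -0.88 with a standard error of 0.14 (limma adjusted p = 0.226), nearer to 0 than that of HBZ, HBA2 or HBA1 next to it.

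The genes that flank the clusters had log2 fold changes nearer to 0 than the globin genes, and this contrast was not tested. Of 10 flanking genes of the alpha cluster that were tested, 0 were called in either direction, 0 passed the unadjusted p and fold, and the median log2 fold change was -0.076. Both JOA libraries were below both controls in 3 of the 10 and above both in 1, against 18.3% and 36.8% of all genes tested. The lowest was SNRNP25, a protein of the minor spliceosome, at -0.59, and the highest was FAM234A at 0.39. NPRL3, whose introns hold the enhancers of the alpha cluster, was at 20.5 and 23.0 FPKM in the controls, against 22.4 and 22.1 in the JOA libraries. Of 6 flanking genes of the beta cluster that were tested, all olfactory receptor genes, 0 were called and 0 passed the unadjusted p and fold. Their median log2 fold change was 0.0025, from -0.32 for OR51I1 to 0.28 for OR51B2. In the controls OR51B4 was at 29.4 and 29.8 FPKM and OR51B5, which shares exon bases with HBE1 and HBG2, at 14.8 and 16.1, and the other 4 were at most 3.70. BGLT3, a noncoding RNA gene between HBBP1 and HBG1, lay with its neighbours at 17.1 and 21.4 FPKM in the controls, against 6.57 and 5.34 in the JOA libraries, a log2 fold change of -1.61 with a standard error of 0.17 (limma adjusted p = 0.225).

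**Figure D3:**
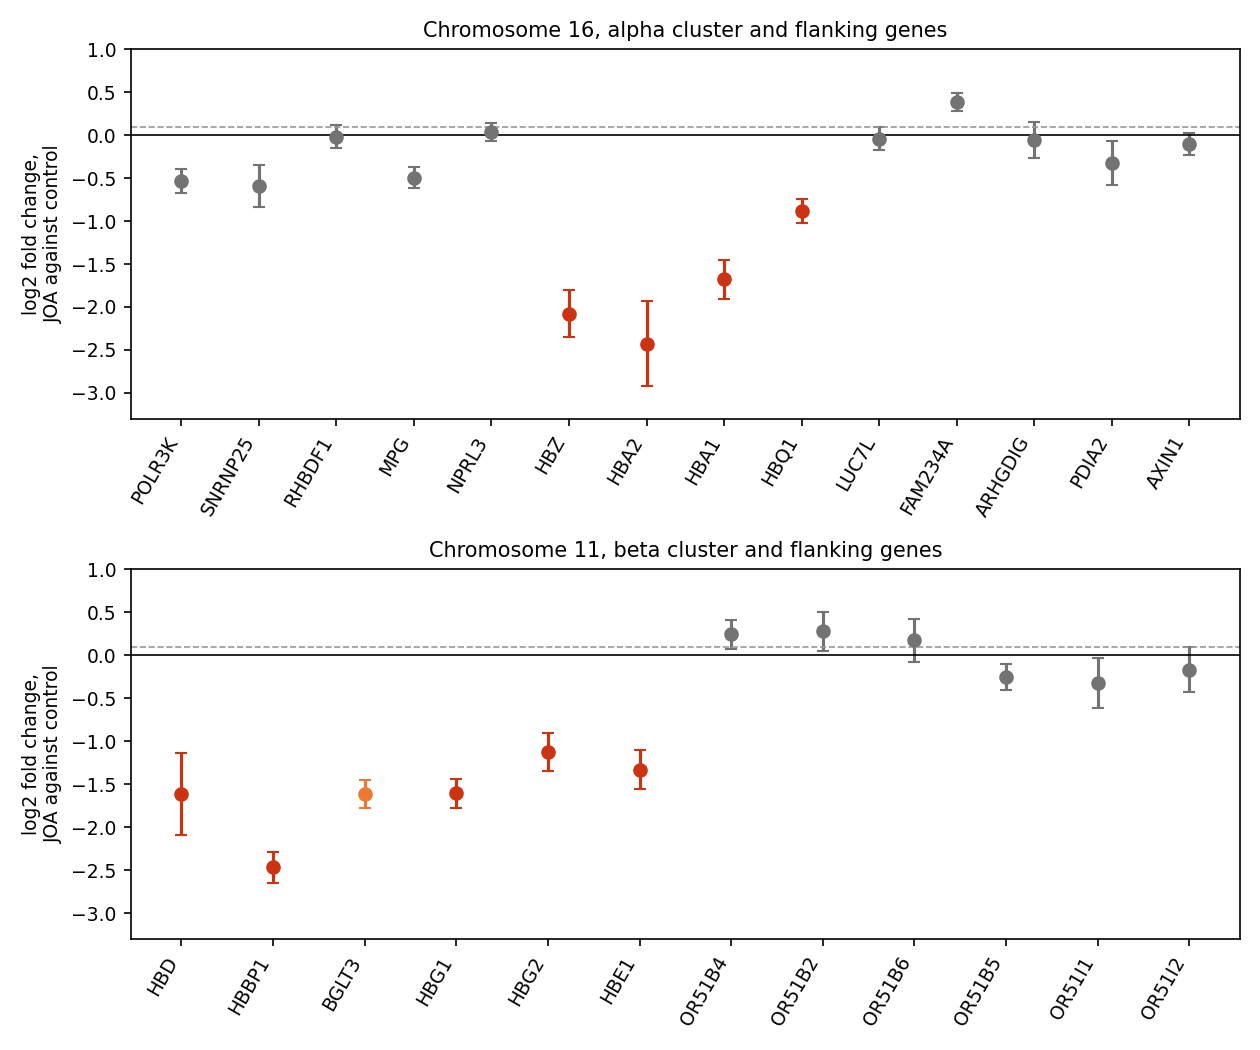
Log2 fold change of JOA against control (y axis) for the tested genes of the alpha cluster (top) and the beta cluster (bottom) and the genes beside them, in chromosomal order and not to scale, with bars of 1 standard error. Red points are globin genes, HBBP1 included, the orange point is BGLT3, grey points are flanking genes, and the dashed line is the median of all genes tested, 0.096. The globin genes lie between -2.47 and -0.88, and the flanking genes lie between -0.59 and 0.39.

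Regulators of the globin genes had log2 fold changes nearer to 0 than the 9 tested genes, again without a test of the contrast. Of 26 regulators, 25 were tested and 0 were called. At an unadjusted p under 0.05 and the fold threshold, 4 were lower and 0 higher, where 2.38% and 5.38% of all genes tested were, and the median log2 fold change was -0.18. The 4 were NFE2, LMO2, KLF1 and GFI1B. NFE2, the subunit that binds the enhancer of the beta cluster with a small MAF protein, was lowest, at 98.8 and 106 FPKM in the controls and 66.5 and 44.5 in JOA_1 and JOA_2 (log2 fold change -0.91, standard error 0.21, limma adjusted p = 0.238). KLF1, an erythroid activator of globin genes, was at 108 and 93.1 FPKM in the controls, against 61.9 and 51.9 in the JOA libraries (log2 fold change -0.82, standard error 0.14, limma adjusted p = 0.227).

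GATA1, the factor that erythroid genes share, was at 239 and 215 FPKM in the controls and 197 and 172 in JOA_1 and JOA_2, a log2 fold change of -0.30 with a standard error of 0.12 (limma adjusted p = 0.295). Its groups did not overlap, and the gap between them was smaller than the gap within a group. MYB, a factor of immature progenitors, was highest of the list at 32.5 and 35.6 FPKM in the controls, against 52.1 and 47.1 in the JOA libraries (log2 fold change 0.54, standard error 0.11, limma adjusted p = 0.236). Of the repressors of fetal globin genes, BCL11A was hardly detected, with at most 0.0158 FPKM in any library. ZBTB7A was at 10.4 and 8.91 FPKM in the controls, against 8.47 and 7.99 in the JOA libraries (log2 fold change -0.22, standard error 0.13).

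**Figure D4:**
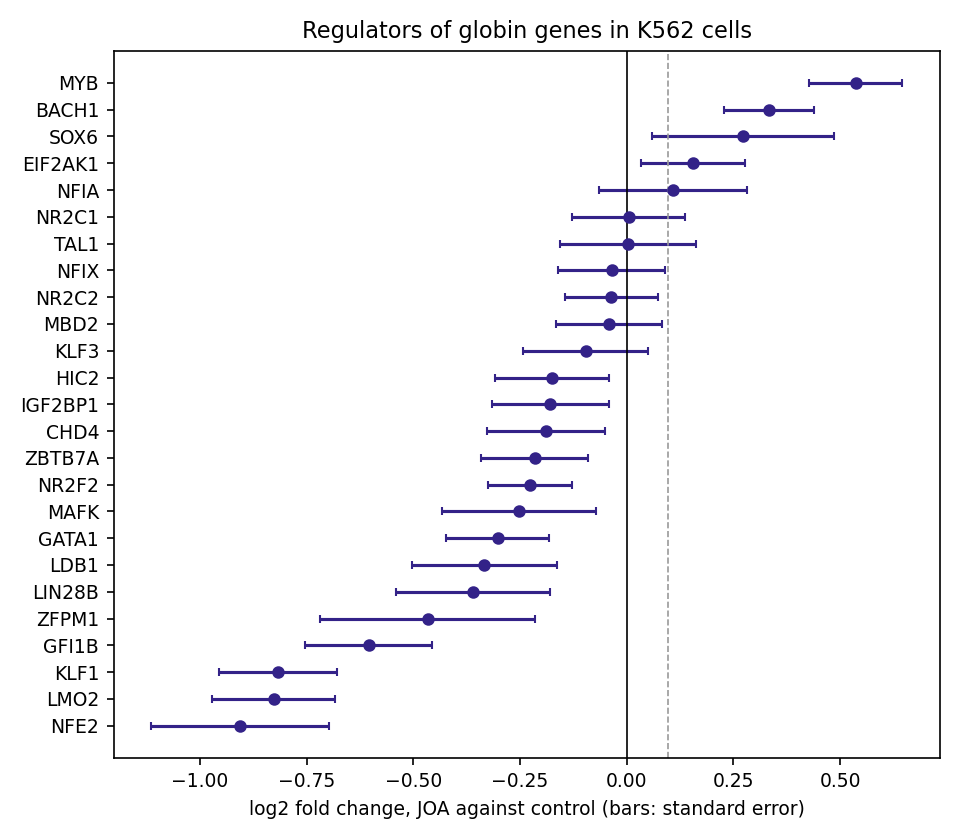
Log2 fold change of JOA against control (x axis) for the 25 tested regulators of globin genes, ordered by value, with bars of 1 standard error and a dashed line at the median of all genes tested, 0.096. NFE2, LMO2 and KLF1 are lowest, at -0.91 to -0.82, and MYB is highest at 0.54.

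The other genes of hemoglobin production were read from the same test. Of 12 genes of heme synthesis, 0 were called, 3 were lower and 0 higher at the unadjusted p and fold (2.38% and 5.38% of all genes tested), and the median log2 fold change was -0.47. ALAD, an early enzyme of the pathway, was highest at 0.37 (standard error 0.11). Of 7 genes that handle globin protein, 0 were called and 0 passed the unadjusted p and fold, from -0.72 for HSPA8, a constitutive chaperone, to 0.44 for ULK1, an autophagy kinase. HSPA8 and ULK1 both overlapped between the groups.

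Of 23 genes of red cell proteins, 20 were tested and 0 called, with 6 lower and 0 higher at the unadjusted p and fold (2.38% and 5.38% of all genes tested) and a median of -0.38. The lowest was PKLR, the red cell pyruvate kinase, at 47.4 and 51.2 FPKM in the controls and 12.8 and 10.7 in JOA_1 and JOA_2 (log2 fold change -2.03, standard error 0.13, limma adjusted p = 0.171). The highest was BNIP3L, which clears mitochondria from maturing red cells, at 0.32 (standard error 0.12).

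Among all genes outside the 10 that averaged 5 FPKM or more, those whose centred log2 values over the 4 libraries were nearest to the median profile of the tested globin-related genes were POLR2L, BGLT3, PKLR, AQP1 and PITX1, with Euclidean distances of 0.316, 0.456, 0.472, 0.494 and 0.534. POLR2L encodes a small subunit shared by the RNA polymerases, and it was at 58.3 and 45.8 FPKM in the controls and 24.7 and 14.7 in JOA_1 and JOA_2. AQP1, a water channel of the red cell membrane, had a log2 fold change of -1.29, and PITX1, a homeobox factor, had -1.21. With 4 libraries, a likeness of profile mostly repeats the difference between JOA and control.

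The erythroid markers GATA1 and KLF1 were present in all libraries at the levels above. Markers of other blood cells were read as sums, none of which overlapped between the groups, and by gene, where 0 were called. The 12 myeloid markers summed to 38.5 and 33.1 FPKM in the controls, against 58.0 and 55.9 in the JOA libraries, with 5 tested, 2 higher and 0 lower at the unadjusted p and fold (5.38% and 2.38% of all genes tested), and log2 fold changes from 0.32 for LYZ (lysozyme) to 1.26 for ITGAM (CD11b). The 10 megakaryocyte markers, of which 9 were in the table and 4 tested, summed to 19.9 and 18.8 FPKM in the controls, against 17.6 and 17.5 in the JOA libraries, with 1 lower and 0 higher at the unadjusted p and fold, 2 of 4 values above 0, and a range from -1.21 for TUBB1 to 0.62 for GP1BA. The 6 lymphoid markers summed to 8.95, 7.77, 16.2 and 10.2 FPKM, with MS4A1 listed at 0, 0 of 2 tested genes past the unadjusted p and fold, and CD3D at a log2 fold change of 0.71. LYZ and CD3D overlapped between the groups. Their part in the result was not tested.

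A list of 8 mRNAs encoded by mitochondria took a smaller share in both JOA libraries. They took 16.8% and 18.2% of the summed FPKM in the controls and 14.6% and 13.2% in JOA_1 and JOA_2. Of the 8, 4 were lower at the unadjusted p and fold (2.38% of all genes tested) and 0 were called. The lowest log2 fold change was -0.93 for MT-CYB. The highest was MT-CO1 at -0.14, which turned to 0.07 under quantile normalization and to 0.03 with 1 library left out. Of 6 genes common to all cells, 0 were called or passed the unadjusted p and fold, from -0.58 for GAPDH to 0.09 for TBP, and TBP turned to -0.06 under median-ratio scaling. The part of these differences in the globin values was not tested.

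The 9 tested globin-related genes stayed below 0 in log2 fold change under each of the 115 recomputed values, over other pseudocounts, filters, scalings, weights, the replicate block and 1 library left out. Both JOA libraries lay below both controls in each of these genes. The sign was therefore fixed in advance under other pseudocounts and filters, the replicate block and 1 library left out. With other pseudocounts or 1 library left out, only the size could change. Under other filters and the replicate block not even the size could change, so those of the 115 values repeat the reported ones. The widest ranges were those of HBA2 and HBD with 1 library left out and of AHSP with the pseudocount, as given above. For HBE1, quantile normalization gave -0.82.

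**Figure D5:**
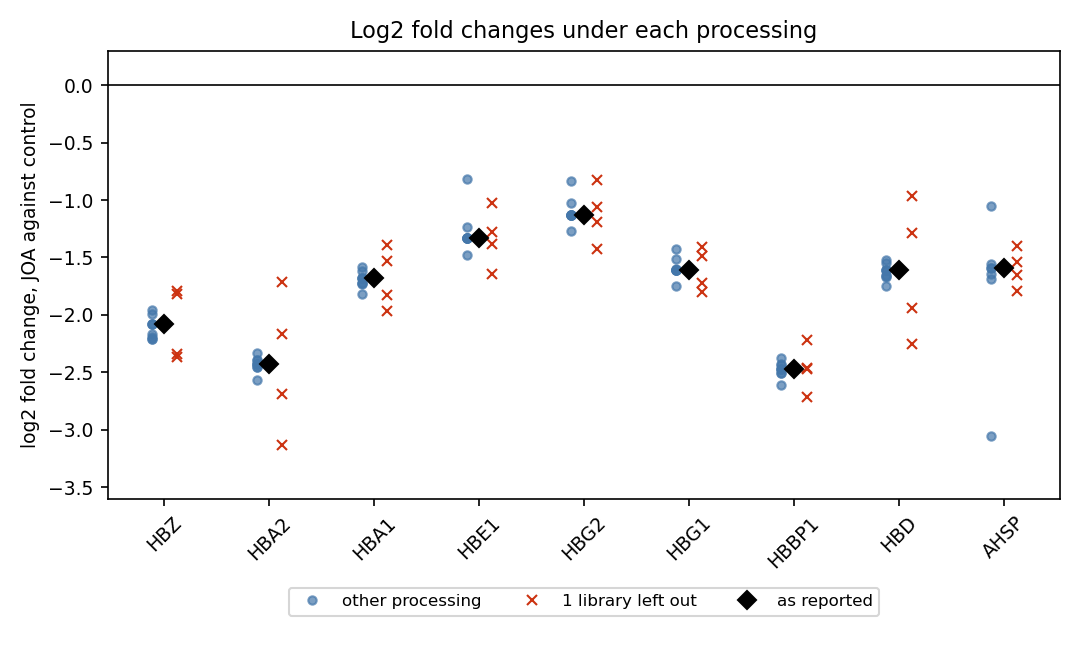
Log2 fold change of JOA against control (y axis) for the 9 tested genes as reported (black diamonds), under other processing (blue circles) and with 1 of the 4 libraries left out (red crosses). All values are below 0, and AHSP spans -3.06 to -1.05 with the pseudocount.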

How the data were processed

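The K562 libraries were made with TruSeq Stranded mRNA chemistry from Trizol RNA. The deposited values are FPKM, computed by the authors, with 1 column per library and 0 columns left unassigned. Trimmomatic, HISAT2, Cufflinks, HTSeq and the build hg38 stand in the submitters' processing notes, without versions or roles. The annotation release and the strand setting of the counting are not given in the sources used here, and the study's methods name TPM as the unit, which the column sums do not match. The BaF3-T315I table was not used here. Symbols were found for 34749 of 35141 genes (98.9%). GENCODE 29 on GRCh38 gave the exon lengths and positions.

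Reads were recovered as the FPKM multiplied by exon length and depth. Of 25509 genes under 1000 reads, 96.3% came to whole numbers within 0.05 in all 4 libraries. For HBA2, HBE1, HBG2, HBG1, HBBP1 and HBD, which did not, the length that gave whole reads within 0.02 was used, a step chosen after seeing the data. Reads are not independent molecules, so intervals cover counting error only.

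The test was limma 3.58.1 in R 4.3.3 with a variance trend, two-sided, on genes that averaged 0.5 FPKM or more, and was tested on simulated data. A gene list is given by its counts and median beside all genes. Sums were made in Python 3.11.15 with numpy 2.4.6, pandas 2.3.3 and scipy 1.17.1, and plots with matplotlib 3.10.9. The genes named besides the 10 are HBB and HBQ1, the highest and the lowest tested gene of each list, GATA1, KLF1, BCL11A, ZBTB7A and MYB, and the 5 genes nearest in profile. Some genes that this rule takes are not reported here. NPRL3, LMO2 and GFI1B were named after their values were seen. The 10 genes, the lists and the tests were chosen with earlier results of these data known.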

Additional observations from a re-analysis of the deposited data

How the results depend on the processing

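Of 115 log2 fold changes of the 9 tested genes under other settings, 113 kept their direction and their side of the threshold and 2, both of HBBP1, passed it. The direction could not turn under other pseudocounts and filters, the replicate block or 1 library left out. Under other filters and the replicate block the fold change itself could not change, only its p-value. With a mean of at least 5 FPKM, 2 genes were called higher and 2 lower in all of K562, of which 1 was among the 10 genes (HBBP1, log2 fold change -2.47). With voom weights on recovered reads 1 gene was called lower, again HBBP1 (-2.51). In both cases the number or the weighting of the genes tested differed, and the cause was not tested. The log2 ratio of the beta cluster sum was -0.88 under quantile normalization, against -1.30 as deposited. With 1 library left out, the log2 ratio ranged from -2.84 (without JOA_1) to -1.71 for the alpha cluster and from -1.63 (without JOA_1) to -1.03 for the beta cluster. The difference in the share of HBZ within the alpha cluster ranged from -1.60 (without JOA_2) to 2.44 percentage points, and that of HBE1 within the beta cluster from -0.74 to 0.18 (without control_1), with 0.13 without JOA_2. In recovered reads the difference for HBE1 was -2.04 percentage points. With HBQ1 added to the alpha cluster, chosen after seeing the data, the difference for HBZ was -2.55 percentage points and the log2 ratio of the alpha sum was -1.71.

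Both JOA libraries were below both controls in 9 of 10 genes with TPM scaling (11.2% of all genes), in 10 of 10 with median-ratio scaling (30.2%) and quantile normalization (25.3%), and in 8 of the 8 genes that stayed in the test at 5 FPKM or more (25.5%) and with voom (17.3%). The counts of 10 include AHSP and HBM, and those of 8 do not. The median log2 fold change of all genes was 0.096 as deposited, 0.18 with TPM scaling, -0.031 with median-ratio scaling and 0.0031 with quantile normalization. With the replicate number as a block, 0 genes were called higher, 0 lower and 0 of the 10, with a smallest adjusted p of 0.0902. The replicate 1 minus replicate 2 differences correlated between control and JOA at r = 0.19 (rho = 0.31) across all genes tested and at r = 0.44 across those with a mean of at least 5 FPKM, which share these 4 libraries, but with 2 pairs and no shared culture in the labels the numbers do not pair the libraries. AHSP, HBM and HBB are limited by depth, with at most 17 reads in a library, and the other genes are limited by the 2 libraries per group.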
